A study of Mus musculus with 26 samples.

Results

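Stroke cortex from mice fed a high-fat diet for 15 weeks was compared with stroke cortex from mice fed the control diet for as long, by sequencing of stranded total RNA. The 10 libraries were taken by their labels (operation, diet and weeks), 6 high-fat and 4 control, out of 26 in the series. All groups are C57BL/6J, an inbred mouse strain that gains weight on fat-rich food. The diets held 60% or 6% of their calories as fat, focal ischemia was produced in the cortex, and RNA came from the stroke core with a rim of surrounding cortex 3 days later. Diet effects 6 weeks into feeding (6 high-fat and 4 control stroke libraries) and 6 sham-operated libraries of the 6-week arm (3 on each diet) serve as reference. The 26 libraries hold no sham cortex at 15 weeks, so the sham ranges below also differ from the 15-week values in feeding time. The labels give no age, body weight, batch or time of day, and nothing in them says that each library is a separate animal, so the tests speak only of the spread among the libraries themselves, which may be technical. Replicate numbers below only name libraries, in accession order.

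Cortical neurons answer synaptic input by switching on immediate early genes, transcription factors such as FOS, EGR1 and the NR4A family, which in turn set the level of slower genes for synaptic proteins and secreted peptides. Much of this response runs through CREB, a factor that binds the cAMP response element in promoters. Beside it, injured cortex fills with activated microglia, invading monocytes and reactive astrocytes, and a fat-rich diet is known to act on lipid handling genes through PPAR receptors. Each of these programmes can be read in the RNA of a bulk tissue piece, where fewer cells of a type and less RNA per cell cannot be told apart.

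The 10 libraries held between 12316491 and 15203309 counts in genes. Fragments outside genes made up 27.4 ± 3.29% of counts in high-fat and 25.7 ± 2.25% in control libraries (mean ± SD over 6 and 4; exact permutation p = 0.4238, both sides). For mitochondrially encoded genes these shares were 9.74 ± 0.991% and 9.12 ± 0.692% (exact permutation p = 0.3095, both sides). Pairs of libraries of one group differed by 6.61 to 76.2 times what counting alone gives, so no library was counted again. Markers of cortex were well expressed, with the excitatory neuron list at a mean of 6.42 to 7.03 log2 CPM in the 10 libraries (CPM are counts scaled to the size of their library).

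On each diet 1 library stood apart. An injury score was taken from 41 genes of activated phagocytes and reactive astrocytes, with 0 at the mean of sham and 1 at the mean of 6-week stroke. High-fat replicate 1 had a score of 0.344 and control replicate 3 one of 0.51, while the other 5 high-fat libraries reached 1.08 to 1.36 and the other 3 control libraries 1.02 to 1.22. The 6 sham libraries lay between -0.0522 and 0.0937. The medians were 1.26 in high-fat and 1.08 in control libraries, and the groups overlapped. Along the first principal component of the 10 libraries, which held 55.4% of the variance, these 2 libraries lay at one end. List results below are therefore also given without one or both of them.

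**Figure D1:**
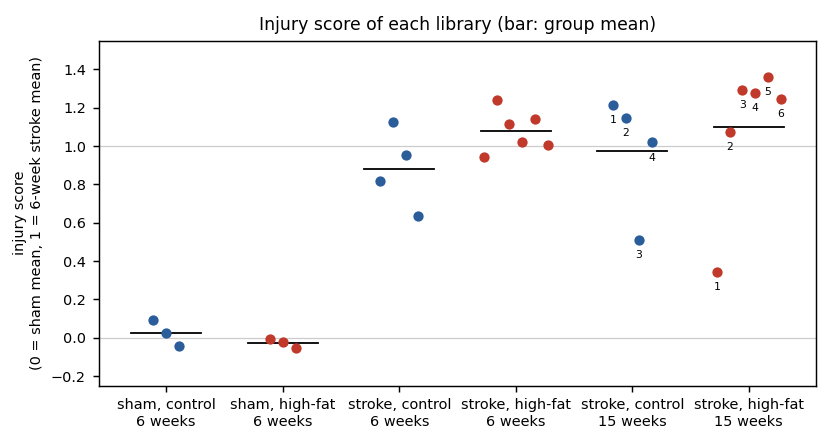
Injury score of each library (y axis, 0 is the sham mean and 1 the 6-week stroke mean) in the 6 groups of the series, with a bar at the group mean and replicate numbers beside the 15-week libraries. High-fat replicate 1 (0.344) and control replicate 3 (0.51) lie between sham and the other stroke libraries.

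Across 16325 genes tested, no gene passed the adjusted threshold of 0.05 in edgeR's quasi-likelihood test (0 genes, 0%). At an unadjusted p under 0.05 there were 1299 genes (7.96%), of which 511 were higher (3.13%) and 788 lower (4.83%) on the high-fat diet. In 67 genes (0.41%) every high-fat library lay above every control library, and in 116 (0.711%) every one lay below. DESeq2 called 10 genes (0.0613%; 7.79% at an unadjusted p under 0.05), 9 of them lower and 1 higher. Voom with quality weights called 0 (0%; 10.5% at an unadjusted p under 0.05). Single libraries moved these shares. The shares lower and higher at an unadjusted p under 0.05 were 9.35% and 10.2% without high-fat replicate 1, 2.58% and 2.02% without control replicate 3, and 4.29% and 4.5% without both. They were 6.66% and 5.38% without control replicate 1, the control library with the highest injury score, and 4.78% and 3.55% with the injury list mean as a covariate. The main fit takes its spread from all 26 libraries. With only the 10 libraries fitted, 482 genes were lower and 268 higher at that threshold. Counts for gene lists are to be read against the shares given above. Whatever their p, 49.57% of all genes tested were lower and 50.43% higher on the high-fat diet. Where other libraries are left out, the shares over all genes in both directions are not reported here. List counts under those settings lack that reference.

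Among the 9 genes that DESeq2 called lower were a peptide, a peptide receptor, a peptide-processing enzyme and an immediate early gene. The smallest p in edgeR belonged to Sstr2, a receptor for the inhibitory peptides somatostatin and cortistatin. Its level was 16.3, 22, 20.7 and 18.4 CPM in the 4 control libraries and ran from 10.6 over a median of 13.2 to 16.4 CPM on the high-fat diet. A single high-fat library, replicate 2, thus reached into the range of the controls, just above the lowest of them. The log2 fold change was -0.54 ± 0.10 (SE; edgeR adjusted p = 0.257, DESeq2 adjusted p = 0.0157). Leaving out high-fat replicate 2 gave edgeR's call of this gene.

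Vip, the peptide that marks a class of disinhibitory interneurons, stood at 45.4, 51.3, 52.7 and 48.8 CPM on the control diet and at 34.3 to 44.9 CPM (median 38.9) on the high-fat diet. Pcsk1, the convertase that cuts prohormones into active peptides, stood at 60.4, 69.6, 68.8 and 57.8 CPM against 36.3 to 53.3 CPM (median 49). For both genes the groups did not overlap, with log2 fold changes of -0.35 ± 0.08 and -0.45 ± 0.10 (DESeq2 adjusted p = 0.0406 for each, edgeR adjusted p = 0.257). Sham libraries held 50 to 66.9 CPM of Vip and 75.6 to 99.3 CPM of Pcsk1, so every high-fat library lay below the sham range of both genes, as did all 4 control libraries for Pcsk1 and 2 of them for Vip. Nr4a3, an orphan nuclear receptor of the immediate early class, stood at 22.2, 23.6, 33.0 and 24.3 CPM in the control libraries. In the high-fat ones it ran from 11.8 over a median of 14.5 to 17.2 CPM, again with no overlap (log2 -0.84 ± 0.19; DESeq2 adjusted p = 0.0406).

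The promoters of these 4 genes hold the core of the cAMP response element, TGACG, which reads CGTCA on the other strand. The RefSeq promoters (GRCm38.p6, the 250 bases before the first listed start, written 5′ to 3′ on the gene's strand, plus strand for all 4) are shown because peptide and activity genes were among the lower genes with the smallest p. Other lower genes described below, Crhr1, Cckbr and Fosl2, have no match in the same window. The 4 genes were picked by their class, and promoters of the other genes that DESeq2 called are not given here. Whether CREB has a part in any of these differences was not tested. Capitals mark TGACG on either strand, and the full palindrome TGACGTCA, which contains it in both directions, stands in Sstr2 (chr11:113619077-113619326), nearest 55 bases before the start, and in Pcsk1 (chr13:75089607-75089856). Nr4a3 (chr4:48045055-48045304) has 4 separate cores and Vip (chr10:5638968-5639217) has 1, 79 bases before the start.
Sstr2: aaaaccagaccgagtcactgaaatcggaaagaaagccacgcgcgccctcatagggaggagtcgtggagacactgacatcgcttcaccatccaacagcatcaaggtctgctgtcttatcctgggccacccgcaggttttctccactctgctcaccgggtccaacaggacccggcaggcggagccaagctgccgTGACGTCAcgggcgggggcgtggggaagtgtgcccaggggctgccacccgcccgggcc
Pcsk1: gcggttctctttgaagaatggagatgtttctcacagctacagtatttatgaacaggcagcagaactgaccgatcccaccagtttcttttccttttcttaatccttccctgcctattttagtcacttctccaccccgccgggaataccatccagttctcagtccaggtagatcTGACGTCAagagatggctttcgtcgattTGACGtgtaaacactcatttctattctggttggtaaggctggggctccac
Nr4a3: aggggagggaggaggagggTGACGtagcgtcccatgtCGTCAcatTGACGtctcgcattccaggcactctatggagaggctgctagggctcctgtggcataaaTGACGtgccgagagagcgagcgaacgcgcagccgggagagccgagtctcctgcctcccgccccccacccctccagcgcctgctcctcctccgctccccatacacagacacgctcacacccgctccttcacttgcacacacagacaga
Vip: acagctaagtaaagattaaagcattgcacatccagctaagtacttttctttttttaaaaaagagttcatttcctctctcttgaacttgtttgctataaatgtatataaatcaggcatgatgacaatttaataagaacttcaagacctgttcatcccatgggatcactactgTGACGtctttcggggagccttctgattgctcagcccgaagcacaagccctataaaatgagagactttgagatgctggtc
Of 27025 mouse genes with a promoter in that table, 17.9% hold TGACG and 1.62% the palindrome in the same window, and of 11978 genes tested here 25.9% and 2.68%. Among activity-regulated transcription factor genes 11 of 14 with a promoter entry hold TGACG (78.6%), among neuropeptide genes 8 of 13 (61.5%) and among peptide processing genes 7 of 11 (63.6%). In the other lists searched, 7 of 14 activity effector genes (50%), 6 of 17 neuropeptide receptor genes (35.3%) and 4 of 16 clock genes (25%) hold it. The palindrome stands in 1 of 14 activity transcription factor, 2 of 13 neuropeptide and 3 of 11 peptide processing genes. Another motif searched, CACGTG, stands in 8.11% of genes tested, but in 31.2% of clock, 29.4% of neuropeptide receptor and 28.6% of effector genes. For activity transcription factor, neuropeptide and peptide processing genes its shares are 14.3%, 15.4% and 9.09%. A match describes the letters of the window and is not a bound site, and the palindrome also stands in Scg2 (log2 0.17) and Sst (-0.04).

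The other genes called by DESeq2 were Grk3, a kinase that desensitizes G protein-coupled receptors (log2 -0.32 ± 0.07), Nuak1, an AMPK-related kinase active in axons (-0.35 ± 0.08), Frmd6 (-0.44 ± 0.10), Sowahb (-0.56 ± 0.12) and AI413582 (-0.32 ± 0.07). Sowahb stood at 23.8, 24.7, 27.9 and 27.5 CPM on the control diet and at 14.2 to 19.9 CPM on the high-fat diet. Grk3 stood at 114, 124, 133 and 127 CPM against 87.8 to 111 CPM. The only gene DESeq2 called higher was B3galt5, a galactosyltransferase of glycolipid and glycoprotein chains. It stood at 46.8, 34.0, 38.9 and 45.7 CPM on the control diet and ran from 50.9 over a median of 54.8 to 69.9 CPM on the high-fat diet (log2 0.48 ± 0.11; DESeq2 adjusted p = 0.0406). Sham libraries held 35.9 to 48.9 CPM of B3galt5, so every high-fat library lay above the sham range.

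Further genes among the 10 smallest p on the lower side were Hrh1, a histamine receptor (log2 -0.50 ± 0.11), and Tsks, a kinase substrate of testis at no more than 1.69 CPM (-1.55 ± 0.35). Hrh1 stood at 14.1, 14.5, 16.3 and 18.4 CPM against 8.85 to 13.1 CPM, without overlap. On the higher side, Pde1c, a phosphodiesterase that degrades cyclic nucleotides, had a log2 fold change of 0.51 ± 0.14. Ap1s2, an adaptor subunit of vesicle coats, had one of 0.39 ± 0.10. Abca8a, a lipid transporter of the ABC family, stood at 16.6, 13.2, 15.0 and 13.8 CPM on the control diet and at 16.6 to 20.3 CPM on the high-fat diet (0.34 ± 0.09). Tmem212, a gene of ciliated cells, stood at 0 to 0.438 CPM against 0.577 to 2.27 CPM, where counts are few. All of these had an edgeR adjusted p of 0.257 to 0.379.

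Of 18 activity-regulated transcription factor genes, all tested, 16 were lower on the high-fat diet, with a list median of -0.44 against 0.001 over all genes tested. At an unadjusted p under 0.05, 10 were lower and 0 higher, and none passed in edgeR after adjustment. In 4 of them, Nr4a3, Egr1, Egr4 and Fosb, the diets did not overlap. Nr4a1, an orphan nuclear receptor, stood at 58.1, 64.4, 81.6 and 42.6 CPM on the control diet and ran from 26.2 over a median of 39.3 to 43.1 CPM on the high-fat diet (log2 -0.74 ± 0.21). Control replicate 4 alone reached down into the high-fat range. Egr1, a zinc finger factor, stood at 74.0, 72.6, 106 and 82.5 CPM against 38.4 to 61.3 CPM (-0.73 ± 0.22). Egr4, its relative, stood at 7.88, 9.54, 8.04 and 8.53 CPM against 3.36 to 7.57 CPM (-0.65 ± 0.20). Members of the AP-1 family that dimerize with JUN lay the same way, with Fos at -0.55 ± 0.25, Fosb at -0.63 ± 0.29, Fosl2 at -0.45 ± 0.15 and Junb at -0.42 ± 0.15. The 2 members above 0 were Jun (0.18 ± 0.11) and Atf3 (0.56 ± 0.39), which are also injury genes: Atf3 stood at 0.504 to 0.968 CPM in sham and at 1.15 to 14.7 CPM in the 10 libraries.

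**Figure D2:**
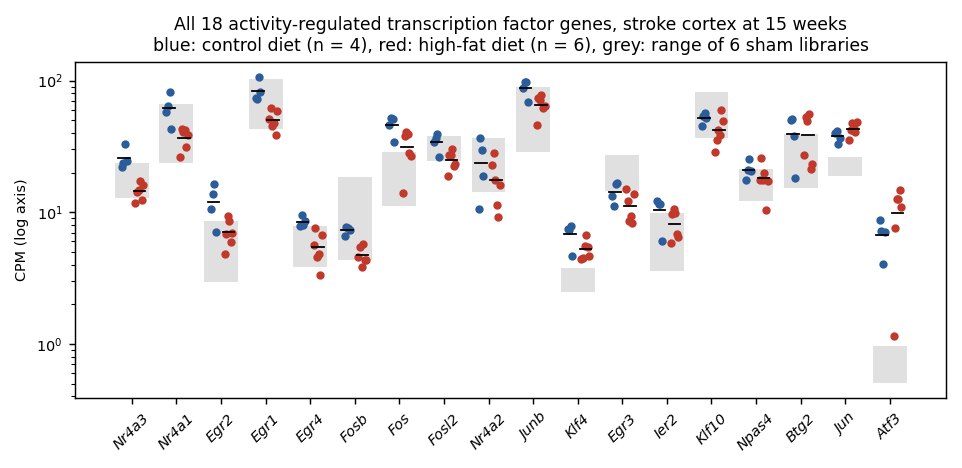
CPM (log axis) of all 18 activity-regulated transcription factor genes in each 15-week stroke library, with a bar at the group mean, control diet in blue, high-fat diet in red and the range of the 6 sham libraries in grey, ordered by log2 fold change. Nr4a3, Egr1, Egr4 and Fosb show no overlap between diets, while Jun and Atf3 lie above 0.

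Among activity-induced effector genes the largest difference was that of Arc, which controls the uptake of synaptic receptors. It stood at 263, 315, 394 and 172 CPM on the control diet and ran from 106 over a median of 173 to 196 CPM on the high-fat diet (log2 -0.77 ± 0.24), with control replicate 4 inside the high-fat range and high-fat replicate 1 far below the rest. Homer1, a postsynaptic scaffold gene with an activity-induced short form, stood at 300, 316, 407 and 312 CPM against 215 to 329 CPM (-0.43 ± 0.13). Of 21 effector genes tested, 15 were lower (median -0.18), with 7 lower and 1 higher at an unadjusted p under 0.05 (4 lower without control replicate 3, 2 without both libraries that stand apart). The 1 higher was Inhba, the activin A subunit (0.56 ± 0.20).

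The direction of the transcription factor list held in all 21 alternative analyses, with medians from -0.535 to -0.325. The number of members lower at an unadjusted p under 0.05 was 6 without control replicate 3 and 4 (with 1 higher) without both libraries that stand apart. The median was then -0.325, and log2 fold changes were -0.64 for Nr4a3, -0.49 for Nr4a1, -0.60 for Egr1, -0.68 for Egr4 and -0.47 for Arc. With the injury list mean as a covariate the median was -0.436 with 10 lower. With only the 10 libraries fitted it was -0.435 with 8 lower. The lowest list mean of all 10 libraries belonged to high-fat replicate 1 (3.73 log2 CPM) and the highest to control replicate 3 (4.67), the 2 libraries with the lowest injury scores. Among the libraries with scores above 1, the control ones held 4.26 to 4.64 log2 CPM and the high-fat ones 3.90 to 4.31. The list mean of sham libraries ran from 3.47 to 4.19 log2 CPM, so all 4 control libraries and high-fat replicates 2, 3 and 4 lay above every sham library.

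**Figure D3:**
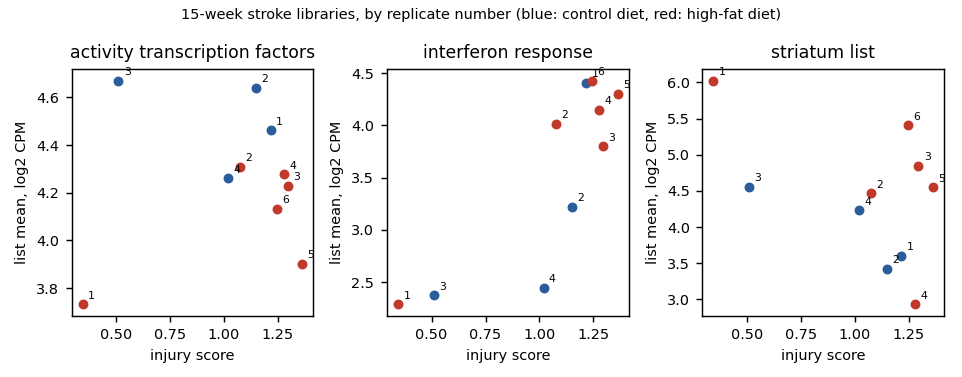
Mean log2 CPM of 3 gene lists (y axes) against the injury score (x axes) in the 10 stroke libraries at 15 weeks, blue for the control and red for the high-fat diet, numbered by replicate. High-fat replicate 1 and control replicate 3 have low scores but the lowest (3.73) and highest (4.67) activity list means, and the interferon list mean of control replicate 4 (2.45) lies near those of the 2 low-score libraries.

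At 6 weeks, in libraries none of which is used at 15 weeks, the same list had a median of 0.08, with 4 members higher and 0 lower at an unadjusted p under 0.05 (2.98% and 4.01% of all genes). The difference between the diet effects, 15 minus 6 weeks, had a median of -0.55 over the list. It was below 0 at an unadjusted p under 0.05 in 7 members (2.32% of all genes) and above 0 in 0 (2.53%). Nr4a1 was at 36.5 ± 8.38 CPM on the control diet and 36.7 ± 7.23 CPM on the high-fat diet at 6 weeks, and at 61.7 ± 16.1 and 36.9 ± 6.73 CPM at 15 weeks (SD, n = 4 and 6). Egr1 was at 59.3 ± 15.1 and 62.4 ± 13.2 CPM at 6 weeks and at 83.8 ± 15.5 and 50.4 ± 8.52 CPM at 15 weeks (SD, n = 4 and 6). In both genes the high-fat means of the arms were closer to each other than the control means were. Over all genes, diet by weeks called 0 genes in edgeR (0%; 792 or 4.85% at an unadjusted p under 0.05), 0 in DESeq2 (0%; 793 or 4.86%) and 0 in voom (0%; 1106 or 6.77%). The smallest p values for it belonged to Adra1d, an adrenergic receptor gene (-0.83 ± 0.18), Ap1s2 (0.63 ± 0.14), Fezf2, a factor of deep-layer projection neurons (-0.58 ± 0.15), Ier5l (-0.88 ± 0.23) and Cep70, a centrosomal gene (0.45 ± 0.12), each with an edgeR adjusted p of 0.9461. How long the mice were fed cannot be told apart from how old they were, or from any difference in how the arms were handled.

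All 18 circadian clock genes were lower on the high-fat diet (median -0.22), 9 of them at an unadjusted p under 0.05 and 0 higher. Bhlhe40, a clock repressor that neuronal activity also induces, stood at 73.4, 76.9, 96.4 and 83.7 CPM on the control diet and ran from 52.9 over a median of 60.4 to 67.8 CPM on the high-fat diet, with no overlap (log2 -0.46 ± 0.12). Ciart, another repressor, had a log2 fold change of -0.52 ± 0.16 and the cryptochrome genes Cry1 and Cry2 had -0.24 ± 0.09 and -0.29 ± 0.09. Clock and Arntl, which form the activating dimer, were at -0.01 ± 0.05 and -0.10 ± 0.10. Other members were spread between, such as Rora at -0.21 and Hlf at -0.35. The median kept its sign in all 21 alternatives, from -0.276 to -0.126. The count of 9 became 4 without control replicate 3, 5 without control replicate 4, 5 without high-fat replicate 3, 5 without high-fat replicate 5 and 5 without both libraries that stand apart. It was 6 with only the 10 libraries fitted and 7 with the injury list mean as a covariate (median -0.151). At 6 weeks the median was -0.08, with 3 members lower at an unadjusted p under 0.05.

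Peptide signalling was uneven. Of 16 neuropeptide genes 11 were lower (median -0.04), with Vip and Cort lower at an unadjusted p under 0.05 and Nts higher. Cort, the cortistatin gene, stood at 5.69, 4.43, 5.87 and 4.33 CPM on the control diet and ran from 2.28 over a median of 3.48 to 4.74 CPM on the high-fat diet (log2 -0.58 ± 0.16). Sst and Npy, the peptides of the larger interneuron classes, stood at -0.04 ± 0.10 and -0.00 ± 0.10. Nts, the neurotensin gene, was at 7.07 CPM in high-fat replicate 1 against 0.601 to 2.96 CPM in the other 5 and 0.802 to 1.53 CPM on the control diet (1.17 ± 0.51). The list median was -0.124 with 4 lower and 0 higher at an unadjusted p under 0.05 without high-fat replicate 1, -0.023 with 2 lower and 3 higher without control replicate 3, and -0.116 with 3 lower and 0 higher without both. By voom it was -0.142, and with the injury list mean as a covariate 0.005.

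Of 19 neuropeptide receptor genes 13 were lower (median -0.10), 5 at an unadjusted p under 0.05 (3 without control replicate 3 and 3 without control replicate 4) and 1 higher. Beside Sstr2, the stress peptide receptor gene Crhr1 stood at 18.5, 19.7, 19.9 and 22.2 CPM on the control diet and ran from 9.01 over a median of 14.8 to 16.2 CPM on the high-fat diet (log2 -0.52 ± 0.14). Cckbr, the cholecystokinin receptor of the brain, stood at 35.2, 35.5, 40.4 and 46.1 CPM against 25.7 to 33.2 CPM (-0.44 ± 0.12). Neither gene overlapped between diets, and both stayed below 0 without the 2 libraries that stand apart (-0.53 and -0.46). Sstr4 was at -0.22 ± 0.09. Without both libraries that stand apart the list median was -0.157 with 4 lower. Of 13 peptide processing genes 10 were lower (median -0.11), 4 at an unadjusted p under 0.05: Pcsk1, Scg5, the chaperone of a convertase (-0.23 ± 0.08), Cadps, which primes dense-core vesicles (-0.18 ± 0.08), and Pam, the amidating enzyme (-0.11 ± 0.05). The 1 higher was Chga, a granin (0.22 ± 0.10). The 4 lower were 2 without control replicate 3, 2 without control replicate 4, 2 without high-fat replicate 5 and 7 without high-fat replicate 1. Without both libraries that stand apart 4 were lower and 2 higher.

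**Figure D4:**
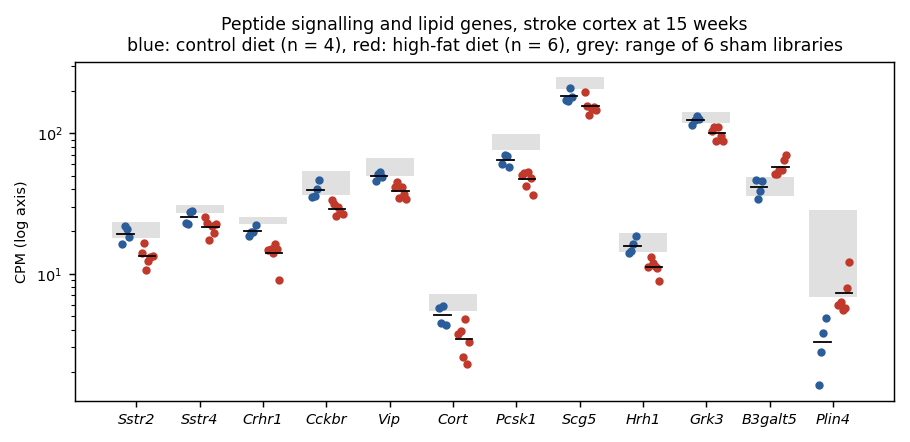
CPM (log axis) of 12 named genes in each 15-week stroke library. They are genes of peptide signalling, with Hrh1, Grk3, B3galt5 and the lipid droplet gene Plin4. Bars mark the group mean, with control diet in blue, high-fat diet in red and the range of the 6 sham libraries in grey. Vip, Pcsk1, Crhr1, Cckbr, Hrh1 and Grk3 show every high-fat library below every control library, and Plin4 and B3galt5 every one above.

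Broader neuron lists lay slightly below 0. Of 20 excitatory neuron genes 17 were lower (median -0.13), 4 at an unadjusted p under 0.05 and 0 higher. Among them were Cux2 (-0.29 ± 0.13), Fezf2 (-0.30 ± 0.10) and Neurod6 (-0.23 ± 0.08), transcription factors of cortical projection neurons. The count of 4 was 1 without control replicate 4, 2 without control replicate 3, 2 without both libraries that stand apart and 11 without high-fat replicate 1. All 23 synapse and ion channel genes were lower (median -0.16), 5 at an unadjusted p under 0.05, including Stx1a of the vesicle fusion machinery (-0.35 ± 0.12) and the sodium channel gene Scn1a (-0.32 ± 0.13). That count was 6 without both libraries that stand apart, 1 without control replicate 3, 3 without control replicate 4, 2 without high-fat replicate 5, 2 without high-fat replicate 6, 8 without control replicate 1 and 13 without high-fat replicate 1. Of inhibitory neuron genes, 10 of 18 were higher (median 0.07), with Gad2, the enzyme that makes GABA, at 0.45 ± 0.17 and Kcnc2, a channel of fast-spiking cells, at -0.23 ± 0.08. Without high-fat replicate 1 the list had 9 higher and 9 lower (median 0.004), 2 and 4 of them at an unadjusted p under 0.05. Its median was 0.026 without both libraries that stand apart and -0.017 without high-fat replicate 4. The difference between neuron lists was not tested.

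Markers of striatum, the tissue below the cortex, differed between libraries. All 13 striatum genes were higher on the high-fat diet (median 0.88), 1 at an unadjusted p under 0.05 (11 without high-fat replicate 4, 6 without control replicate 3, 0 without high-fat replicate 1, 0 without control replicate 1, 0 without both libraries that stand apart), with list means of 2.93 to 6.02 log2 CPM against 3.42 to 4.56 on the control diet. Penk, an opioid peptide gene abundant in striatum, stood at 295 CPM in high-fat replicate 1, 196 in replicate 6, 137 in replicate 3 and 30.1 to 85.0 in the other 3, against 37.1, 42.1, 108 and 61.7 CPM on the control diet (log2 1.13 ± 0.55). At 6 weeks the list median was -0.64. The difference between the diet effects, 15 minus 6 weeks, had a median of 1.52 over the striatum list. It was above 0 at an unadjusted p under 0.05 in 9 members (2.53% of all genes) and below 0 in 0 (2.32%). Gad2, Nts and Penk are expressed in striatum as well as cortex, and the part of striatal tissue in their values was not tested. Choroid plexus and ependyma genes had a median of 0.36 (8 of 11 higher, 2 at an unadjusted p under 0.05), and of 0.33 without both libraries that stand apart.

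Genes of injury and inflammation had medians above 0 but wide spread. Of 2795 genes called higher in 6-week stroke against sham, 2540 were higher on the high-fat diet at 15 weeks. That share is the reference for the numbers of members higher in these lists. Activated phagocyte genes had a median of 0.37 (19 of 20 higher, 1 at an unadjusted p under 0.05 and 0 lower), reactive astrocyte genes of 0.36 (19 of 21 higher, 1 and 0) and homeostatic microglia genes of 0.185 (11 of 12 higher, 1 and 0). All 15 genes of monocytes and border macrophages were higher (median 0.42), 5 at an unadjusted p under 0.05 (1 without control replicate 3, 2 without control replicate 4, 2 without high-fat replicate 4, 2 without high-fat replicate 5, 3 without control replicate 2, 6 without both libraries that stand apart). Ly6c2, a marker of inflammatory monocytes, stood at 2.26, 0.739, 0.402 and 0.459 CPM on the control diet. High-fat replicate 1 held 0.0822 CPM, and the 5 remaining high-fat libraries 3.18 to 4.89 CPM (log2 1.81 ± 0.65). The chemokine gene Ccl4 had a log2 fold change of 1.03 ± 0.45. Without high-fat replicate 1 the medians of phagocyte, reactive astrocyte and homeostatic microglia genes were 0.554, 0.551 and 0.325, with 9, 9 and 4 members higher at an unadjusted p under 0.05. Without control replicate 3 they were 0.128, 0.161 and -0.001, with 1, 0 and 0, and 6 of 12 microglia genes were then lower. Without both they were 0.338, 0.377 and 0.153, with 1, 1 and 0. With the injury list mean as a covariate the median of monocyte genes was 0.18. Those of phagocyte and reactive astrocyte genes were -0.02 and -0.01. The covariate is the mean of these same 2 lists, so medians near 0 were fixed in advance and carry no information on diet. At 6 weeks the medians of phagocyte, reactive astrocyte and monocyte genes were 0.54, 0.40 and 0.60.

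All 24 interferon response genes were higher (median 0.64), 1 at an unadjusted p under 0.05. Of these genes 23 were called higher in 6-week stroke, so the same reference, 2540 of 2795, applies. Mx1, an antiviral GTPase, stood at 11.9, 4.84, 2.33 and 3.67 CPM on the control diet and ran from 2.14 over a median of 10.8 to 15.4 CPM on the high-fat diet (log2 0.88 ± 0.40). Isg15, a ubiquitin-like modifier, stood at 8.83, 2.62, 1.37 and 1.25 CPM against 2.06 to 12.9 CPM (0.93 ± 0.45). Control replicate 1 was high in both and lay within the high-fat range, and high-fat replicate 1 was low in both. Without control replicate 1 the list median was 1.395 with 23 members at an unadjusted p under 0.05, without high-fat replicate 1 it was 0.823 with 18, without control replicate 3 0.376 with 0, and without control replicate 4 0.398 with 0. With both libraries that stand apart left out it was 0.58 with 5, and by voom 0.841 with 20. The list thus ranged from 0 to 23 members at that threshold with single libraries, and its median was above 0 in all 21 alternatives.

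Genes of myelin were higher in 15 of 15 cases (median 0.28), 3 at an unadjusted p under 0.05, such as Mobp (0.31 ± 0.12) and Ermn (0.36 ± 0.14). Their number was 12 without high-fat replicate 1, 9 without control replicate 1, 6 without both libraries that stand apart and 0 without control replicate 2. Cell cycle genes were higher in 22 of 22 cases (median 0.44), 1 at an unadjusted p under 0.05. All 22 were also called higher in 6-week stroke, as were 2795 genes in all, of which 2540 were higher on the high-fat diet. Without high-fat replicate 1 the median of cell cycle genes was 0.667 with 18 at that threshold, and without control replicate 3 it was 0.185 with 0. It was 0.397 with 6 without both, and 0.668 with 3 without control replicate 1. The count was also 0 without control replicate 4, without high-fat replicate 3 and without high-fat replicate 5. With the injury list mean as a covariate 15 of 22 were higher (median 0.076).

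Of 28 PPAR target and fatty acid oxidation genes 23 were higher (median 0.16), 5 at an unadjusted p under 0.05 and 1 lower. Plin4, a lipid droplet coat protein, stood at 1.60, 2.75, 3.78 and 4.85 CPM on the control diet and ran from 5.53 over a median of 6.14 to 12 CPM on the high-fat diet, with no overlap (log2 1.15 ± 0.36; edgeR adjusted p = 0.471). Sham libraries held 6.88 to 28.2 CPM, above all control stroke libraries and above 4 of the 6 high-fat ones. The 6-week means were 6.75 ± 1.02 CPM on the high-fat and 3.77 ± 0.919 CPM on the control diet (SD, n = 6 and 4), the same side as at 15 weeks. Ehhadh, a peroxisomal oxidation enzyme, was at 0.51 ± 0.18 and Fabp3, a fatty acid carrier of neurons and muscle, at -0.29 ± 0.12. Without the 2 libraries that stand apart Plin4 was at 1.28, with 7 of the list higher at an unadjusted p under 0.05. The count of 5 was 3 without control replicate 3, 3 without control replicate 4, 3 without high-fat replicate 5 and 11 without high-fat replicate 1.

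Of 20 cholesterol synthesis genes 17 were lower (median -0.08), 3 at an unadjusted p under 0.05. These were Insig1, which holds the SREBP pathway back (-0.26 ± 0.08), Cyp51 (-0.21 ± 0.07) and Fdft1 (-0.15 ± 0.07), both enzymes of the pathway. Without control replicate 3 the count was 1, without control replicate 2 also 1, without control replicate 1 it was 5, and without both libraries that stand apart 0 with a median of -0.021. Genes of cholesterol efflux and lipid droplets had a median of 0.16 (12 of 15 higher, 0 at an unadjusted p under 0.05, but 7 without high-fat replicate 1 and 5 without both libraries). Genes of fatty acid synthesis had one of -0.05 (11 of 17 lower, 1 at that threshold, and 0 without both). Differences between these lists were not tested. In the insulin and leptin list (20 genes, median -0.04, and 0.02 without control replicate 4, -0.034 without both libraries that stand apart) Igfbp5, a binding protein for insulin-like growth factors, was at -0.37 ± 0.11 and Irs1, an adaptor of the insulin receptor, at -0.22 ± 0.10. In the glucocorticoid response list (18 genes, median 0.14, 2 higher and 2 lower at an unadjusted p under 0.05, 3 and 1 without both) Sgk1, a kinase induced by the hormone, was at 0.42 ± 0.17 and Nr3c1, its receptor, at -0.20 ± 0.07. Plin4, described above with the PPAR targets, is also a member of the glucocorticoid list.

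**Figure D5:**
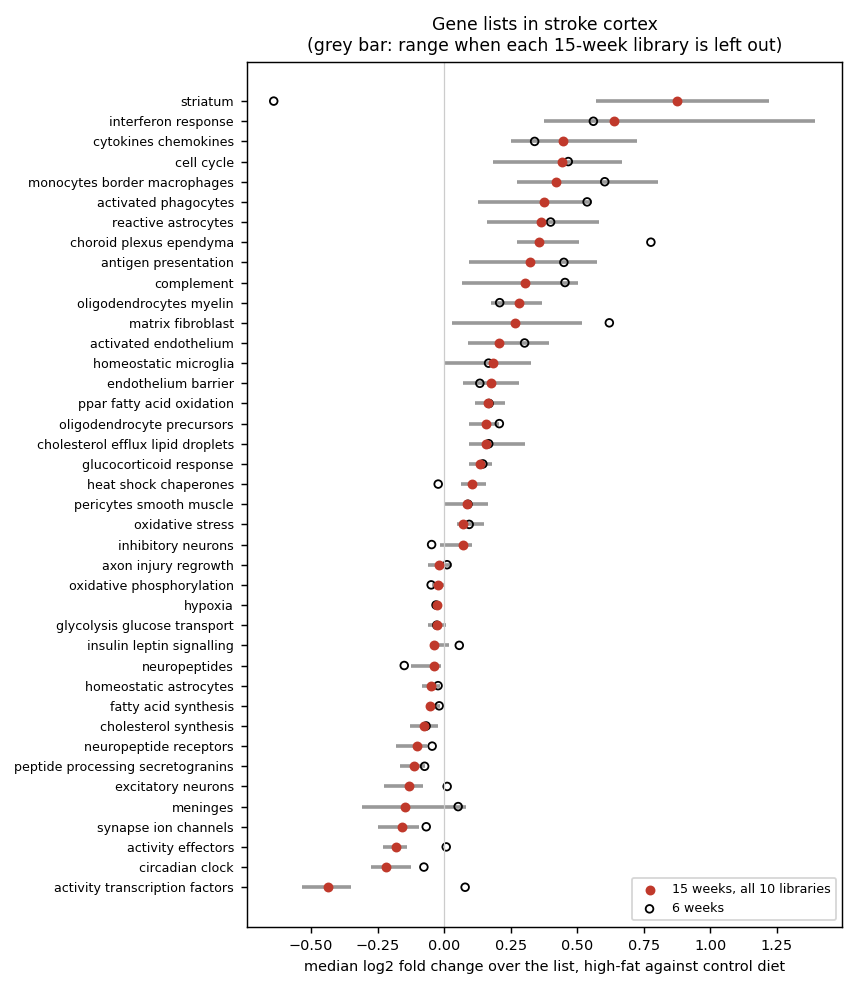
Median log2 fold change of high-fat against control diet (x axis) over each gene list with at least 8 tested genes, at 15 weeks with all 10 libraries (red), at 6 weeks (open circles), and the range when each 15-week library is left out in turn (grey bars). Activity transcription factors have the lowest median at 15 weeks (-0.44) and lie at 0.08 at 6 weeks, and the interferon list has the widest bar.

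The diet difference at 15 weeks was also read in genes that stroke itself changed at 6 weeks, a contrast with no 15-week library in it. There 2795 genes were called higher (17.1%) and 2092 lower (12.8%) in stroke than in sham over both diets. The first set had a median diet effect of 0.206 at 15 weeks, with 2540 genes higher on the high-fat diet, and the second a median of -0.0941 with 1758 genes lower. Genes not called had a median of -0.00999. The medians of the first and second set were 0.322 and -0.125 without high-fat replicate 1, 0.0916 and -0.0585 without control replicate 3, 0.191 and -0.086 without both, and 0.0628 and -0.0658 with the injury list mean as a covariate. Of the 18 activity-regulated transcription factor genes, 2 were called higher in stroke (Jun and Atf3) and 1 lower (Egr3), and of the 21 effector genes 1 was called higher and 5 lower. Members with large diet differences had log2 fold changes in 6-week stroke against sham of -0.04 for Nr4a3, -0.21 for Nr4a1, 0.01 for Egr1, -0.02 for Egr4 and -0.16 for Arc. Of 18 clock genes 8 were called lower in stroke and 1 higher. Lower in stroke, with 0 higher, were 10 of 20 excitatory neuron genes and 9 of 23 synapse and ion channel genes. So were 8 of 19 neuropeptide receptor genes and 7 of 13 peptide processing genes, but only 1 of 16 neuropeptide genes. Of 20 cholesterol synthesis genes 6 were called higher and 0 lower. Higher in stroke, with 0 lower, were 22 of 22 cell cycle, 23 of 24 interferon response, 19 of 20 phagocyte and 20 of 21 reactive astrocyte genes. The same held for 12 of 12 homeostatic microglia, 13 of 15 monocyte and border macrophage and 4 of 15 myelin genes. Over all genes tested, the diet effects at 15 and 6 weeks, which share no library, had a Pearson correlation of 0.274 across 16325 genes (Spearman 0.274), with 60.5% of genes on the same side. Genes are not independent replicates, and the arms share the strain, the method and the depth.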

How the data were processed

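The 26 libraries were made from Trizol-extracted cortex with a stranded total RNA kit and read in pairs, per the labels' protocols. The deposited values are raw read counts per Ensembl gene made by the authors. The submitters' processing notes name Trim Galore, STAR, HTSeq, featureCounts and mm9, and versions are not given in the sources used here. Of 39179 gene rows, 37607 had a symbol. The 5 summary rows, among them fragments outside genes, entered neither the library sizes nor the tests and made up 50.4% to 58.2% of the counts in the column of each 15-week library.

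Genes were filtered with filterByExpr (minimum count 10, leaving 16325), normalized by TMM and tested with edgeR 4.0.16 (robust quasi-likelihood test, one mean per group over all 26 libraries, R 4.3.3) with Benjamini-Hochberg adjustment at 0.05. The biological coefficient of variation was 0.136. Standard errors are the log2 fold change divided by the root of the F statistic, and CPM uses TMM-scaled library sizes. On simulated data for the 15-week comparison over 16325 genes, 66% of 1.5-fold and 86% of 2-fold changes were recovered, with 5% false calls. The simulated counts varied independently between genes and held no libraries that stand apart. The shares recovered thus do not say what could be found in the real libraries. Alternatives were DESeq2 1.42.0, voom with quality weights (limma 3.58.1), other scaling, filters, covariates and sample sets, and leaving out each library. Total shares per library were compared by exact permutation, where the smallest p possible with 6 against 4 libraries is 0.00476.

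The comparison, the 44 gene lists and the naming rule were chosen with earlier results of these data known. Some genes stand in several lists, such as Plin4, Pdk4, Per1, Rorb, Penk, Tac1, Jun and Atf3, and are counted in each. Named are the 10 smallest p in each direction, up to 5 largest differences without overlap, up to 4 members of each described list, genes called by an alternative and the 5 smallest p of diet by weeks. Further members, such as Fos, Fosb, Fosl2, Junb, Jun, Atf3, Clock, Arntl, Sst, Npy, Scg2, Isg15, Penk and those only in the plots, were named after their values were seen. Promoters come from RefSeq (GRCm38.p6), matched by symbol for 11978 of the genes tested, and TGACG was searched on both strands. CACGTG and a further motif, the CArG box, were searched in the same windows. The CArG box stands in 1.19% of genes tested and in 0 or 1 gene of each list searched. Some members of these lists are counted but not reported here by name.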

Additional observations from a re-analysis of the deposited data

Results flagged for a closer look

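In 232 groups of values tested (named genes and the injury score, in the 6 high-fat or the 4 control libraries at 15 weeks), 23 held a highest or lowest library set apart from the others by Dixon's criterion, where chance gives about 1 in 20. The genes were named from these same values and many vary together, so that rate is no fair reference here. High-fat replicate 1 accounted for 13 of the 23. Its injury score was 0.344. Its CPM was low for the phagocyte gene Itgax (0.658), the monocyte gene Ly6c2 (0.0822), the homeostatic microglia gene Olfml3 (28.0), for Arc (106) and for Gm11168 (0). It was high for the neuronal and peptide genes Homer1 (329), Scg5 (198), Fabp3 (59) and Nts (7.07), for the striatal factor Six3 (2.55), and for Ap1s2 (58.5) and St6galnac6 (103).

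Control replicate 3 stood apart with high CPM of Homer1 (407), Fabp3 (63.3) and Foxo1 (11.4) and with low CPM of Tgm1 (4.42). Control replicate 4 stood apart with high Adra1d (13.1) and low Ap1s2 (29.0). High-fat replicate 6 stood apart with high CPM of the ependymal genes Ccdc153 (3.48) and Tmem212 (2.27) and of Plin4 (12), and with low Crhr1 (9.01).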

How the results depend on the processing

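The edgeR count of 0 genes past the adjusted threshold was 10 with DESeq2, 3 with the injury list mean as a covariate (Gm11168, Gm10718 and Gm10717, near-identical copies whose counts are uncertain), and 0 to 1 when each library was left out in turn (St6galnac6 without high-fat replicate 1, Sstr2 without high-fat replicate 2). The cause was not tested. At an unadjusted p under 0.05, 482 genes were lower and 268 higher with only the 10 libraries fitted, against 788 and 511 with all 26. Without high-fat replicate 3, 334 were higher. For diet by weeks, the 379 lower became 635 with the injury covariate and 616 without high-fat replicate 1, and the 413 higher became 255 without 15-week control replicate 4 and 227 without 6-week control replicate 3. No named gene that had passed a threshold changed direction under the 21 alternatives. List medians differed by less than the spread between replicates in 923 of 924 recomputations. The exception was the hypothalamus list without a filter (0.9116). That spread is wide, so the count does not show that the medians are stable. The interferon median ran from 0.376 to 1.4 within it. Some medians changed sign, with the main sign kept in 14 of 21 alternatives for axon injury genes, 18 for neutrophil genes, and 20 for homeostatic microglia and for neuropeptide genes. No paired analysis was possible because the labels carry no replicate numbers shared between the diets. Genes near 1 CPM rest on few counts.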
